A study of Salmo salar with 48 samples.

Results

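Liver DNA methylation was compared between 8 Atlantic salmon (Salmo salar) that had been warmed at full oxygen and 8 control salmon, all taken at the 3 day sampling. These 16 fish were selected by their titles out of the 48 fish of the series. The warm normoxic fish (WN) had been warmed from 12 °C by 1 °C per week and had then spent 3 days at 20 °C, with the water at 100% air saturation throughout. The control fish (CT) of the same sampling had stayed at 12 °C and 100% air saturation. All fish were juveniles descended from St. John River strain broodstock of an aquaculture company. The warm normoxic fish came from tanks T2 and T5 and the control fish from T3 and T4, with 4 fish per tank, so that treatment and tank cannot be told apart beyond what 2 tanks per treatment allow. The warm normoxic group held 4 males and 4 females, and the control group 2 males and 6 females. Sex was uneven over the tanks. The fish of T2 were 1 male and 3 females and those of T5 3 males and 1 female. Those of T3 were 2 males and 2 females, and those of T4 were 4 females. The comparison asked what warming alone, with oxygen at saturation, did to methylation soon after the top temperature was reached.

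In vertebrate DNA a methyl group is mostly carried by cytosines that stand before a guanine, the CpG sites. Most CpGs of a vertebrate genome are methylated, while dense clusters of CpGs, often at the starts of genes, are usually kept free of it, and enzymes of the DNMT family write the mark and copy it after replication. The liver is the main metabolic organ of fish, and the body temperature of a salmon follows that of the water. Bisulfite treatment turns unmethylated cytosines into uracil, and a level below is the percent of calls at a CpG that kept the C. Whole liver tissue was used, so a change in the mixture of cell types and a change within cells cannot be told apart.

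The amplified DNA comprised 7 short regions with 107 CpGs, named here by chromosome, with positions as in the reference sequences of the files and reads on the plus strand. Region ssa09 held 8 CpGs at positions 121687029 to 121687311 of chromosome 9. Region ssa04 (35 Mb) held 18 CpGs at 35435825 to 35436217 of chromosome 4, and ssa04 (45 Mb) held 15 CpGs at 44947109 to 44947524 of the same chromosome. Region ssa14 held 14 CpGs at 33502562 to 33502977 of chromosome 14, and ssa03 held 16 CpGs at 13688232 to 13688647 of chromosome 3. Region ssa16, at 37941696 to 37942102 of chromosome 16, was the densest with 23 CpGs, or 5.65 per 100 bp, against 2.83 per 100 bp at ssa09. Region ssa15 held 13 CpGs at 46698401 to 46698820 of chromosome 15. The genes and sequences at these positions were not analysed here.

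A fish had between 2632797 and 4194806 calls in the warm normoxic group and between 2337845 and 4481610 in the control group. These were spread unevenly over the regions. Median depth per CpG at ssa09 was 99185 reads among warm normoxic and 86259 among control fish, but only 389.5 in WN and 396.5 in CT fish at ssa03. At ssa16 the warm normoxic fish were shallower, with a median of 6985 reads per CpG against 14271 in control fish, and the shallowest warm normoxic fish, fish 90, had 561. Every CpG of 6 regions had at least 155 reads in every fish, and these 94 CpGs passed the minimum of 30 reads in all 16 fish. Reads are PCR copies and not molecules, so the errors below are the spread between fish.

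**Figure D1:**
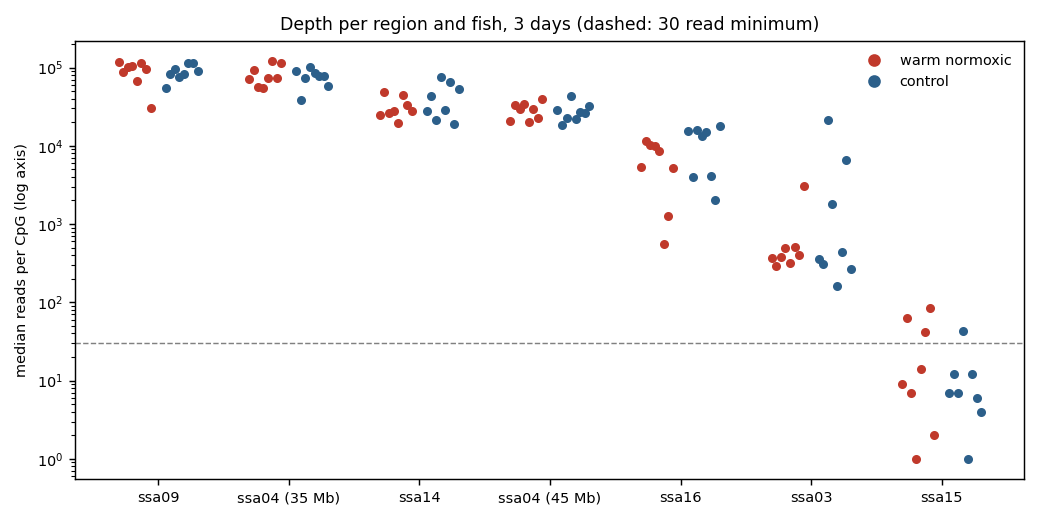
Median reads per CpG in each fish (log axis) for the 7 regions, with warm normoxic fish in red and control fish in blue and the 30 read minimum as a dashed line. The median fish lies near 100000 reads at ssa09 and near 400 at ssa03, and most fish at ssa15 lie under the minimum.

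After 3 days at the top temperature no region and no single CpG passed the threshold of an adjusted p of 0.05 between warm normoxic and control fish. The 6 region means had exact permutation p-values from 0.300 to 0.901, and the adjusted p was 0.901 for each of them (two-sided, Benjamini-Hochberg over the 6 regions, n = 8 each). Of the 94 CpGs, 0 passed an adjusted p of 0.05 in the exact permutation test, that is 0% of those tested, and the limma fits and the coverage-weighted test also called 0. An unadjusted p under 0.05 was reached by 7 CpGs (7.45% of 94), of which 5 (5.32%) were higher and 2 (2.13%) lower in warm normoxic fish. The limma fits gave 6 to 11 such CpGs and the coverage-weighted test 5. At none of the 94 CpGs were the fish of one group all above or all below those of the other.

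**Figure D2:**
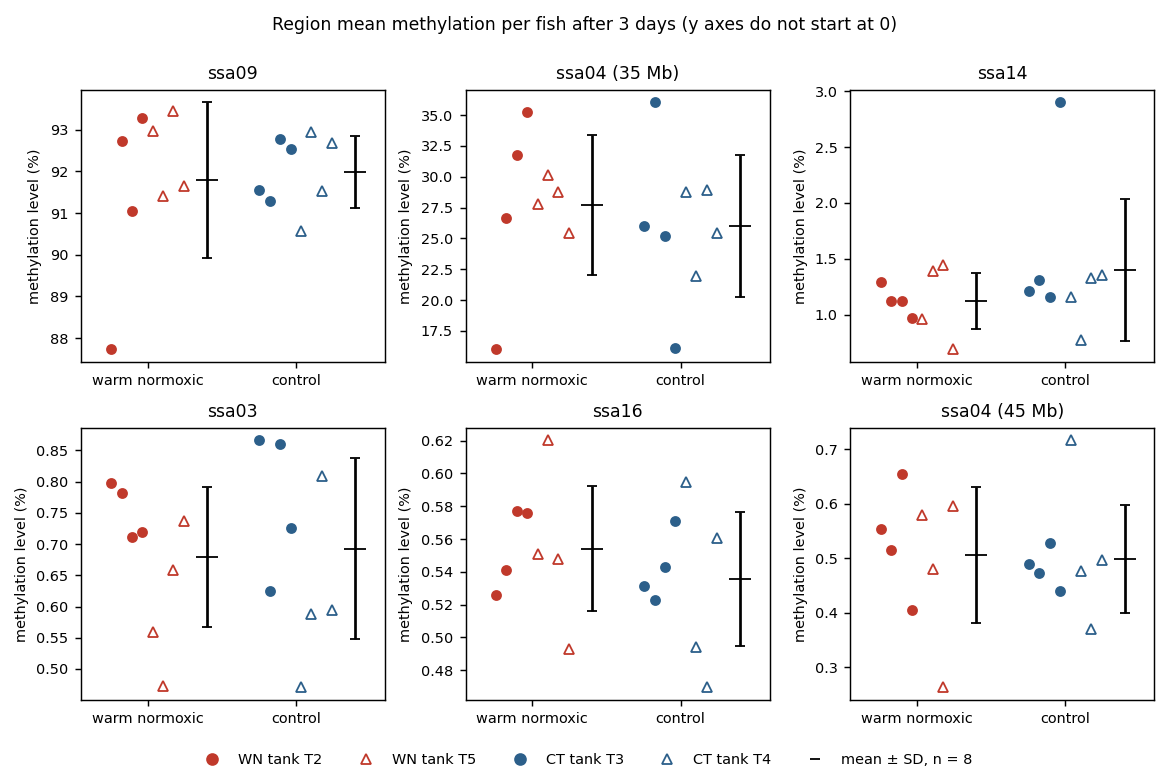
Mean methylation level of each region in each fish (percent, separate y axes that do not start at 0), warm normoxic left of control, with symbols for the tanks and the mean ± SD of each group (n = 8). The groups overlap in every region, and warm normoxic fish 77 at ssa09 (87.7%) and control fish 84 at ssa14 (2.90%) stand apart from their groups.

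Region ssa04 (35 Mb) was the one with intermediate methylation, and fish differed there most. Region means of warm normoxic fish had a lowest value of 16.0%, a median of 28.3% and a highest value of 35.2%, against 16.1%, 25.7% and 36.0% in control fish. Both groups thus covered nearly the same span. The group means were 27.7% ± 5.65 for warm normoxic and 26.0% ± 5.75 for control fish (SD, n = 8 each). Their difference of 1.67 percentage points (95% interval -4.50 to 7.69) was within the spread (exact permutation p = 0.564, two-sided, adjusted p = 0.901), so that a shift of several points in either direction was not detectable among 8 fish per group.

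Along ssa04 (35 Mb) the level rose and fell steeply from one CpG to the next, and this profile had nearly the same shape in both groups. Its highest CpG, at position 35435919, averaged 64.7% ± 8.30 among warm normoxic and 62.4% ± 6.20 among control fish (SD, n = 8 each). Its lowest on average over all 16 fish, at 35436037, had 2.54% ± 1.32 in WN and 2.21% ± 1.22 in CT fish, and the CpG at 35436199 had 2.51% ± 0.749 in WN and 2.85% ± 1.00 in CT fish. Across the 18 CpGs the 2 groups' means had a Pearson correlation of 0.998, a description only, since all these CpGs lie in 1 short region. The warm normoxic mean was the higher at 17 of the 18 CpGs, with differences from -0.335 points at 35436199 to 3.53 points at 35435956, but these CpGs moved together in each fish and are not separate observations. The difference at 35435956 was 6.63 points without warm normoxic fish 77, 0.677 points without control fish 84 and 0.397 points stratified by sex, and that at 35436199 lay between -0.4997 and -0.113 points when single fish were left out. At 35435956 the level ran from 26.4% to 58.6% in warm normoxic fish and from 24.6% to 60.8% in control fish (p = 0.488 by exact permutation, 0.853 adjusted).

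The same few fish were at the extremes at most CpGs of ssa04 (35 Mb). Warm normoxic fish 77 was the lowest of its group at 16 of the 18 CpGs and fish 80 the highest at 15. Among control fish, fish 84 was the lowest at 16 CpGs and fish 82 the highest at 16. The widest range lay at 35435961, the 1 CpG in which fish of the same group differed by more than 40 points. Warm normoxic fish lay there between 26.9% in fish 77 and 65.2% in fish 80, and control fish between 24.0% in fish 84 and 66.6% in fish 82. Each of these values rested on at least 38944 reads. Counting error over reads was far below the spread between fish, but it treats PCR copies as separate molecules. It can therefore be too small, and the number of molecules behind the reads is not known. Without fish 77 the region's difference was 3.35 points (exact permutation p = 0.206) and without fish 84 it was 0.254 points (p = 0.926).

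**Figure D3:**
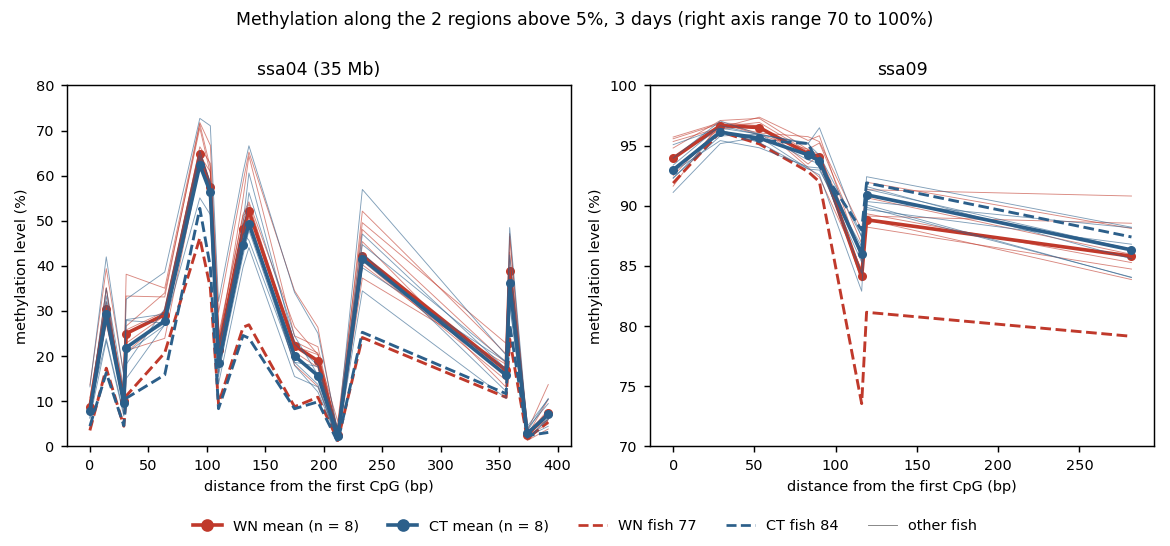
Methylation level (percent) against distance from the first CpG (bp) at ssa04 (35 Mb) and ssa09, with the group means in bold, single fish as thin lines, and warm normoxic fish 77 and control fish 84 dashed. The mean profiles of the groups run together, and fish 77 falls away from the others over the last 3 CpGs of ssa09, down to 73.5%.

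The sexes were unequally represented in the 2 groups and their means at ssa04 (35 Mb) were given separately for that reason. Females had 30.6% ± 3.75 in warm normoxic (n = 4) and 24.4% ± 4.81 in control fish (n = 6), while males had 24.8% ± 6.20 in warm normoxic (n = 4) and 31.0% ± 7.08 in control fish (n = 2). The warm normoxic mean was thus higher in females and lower in males, in groups of 2 to 6 fish that held the extreme fish of the region. Warm normoxic males included fish 77 with 16.0%, and the 2 control males were fish 81 with 26.0% and fish 82 with 36.0%. Control females included fish 84 with 16.1%, and warm normoxic females fish 80 with 35.2%. Whether the difference depends on sex was not tested. With both sexes given equal weight the difference was 0.0155 points (exact permutation within sex, p = 0.998, adjusted p = 0.998). Both control males came from tank T3, so that values stratified by sex do not separate sex from tank.

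Region ssa09 was highly methylated in every fish. Warm normoxic fish had a lowest region mean of 87.7%, a median of 92.2% and a highest of 93.4%, against 90.6%, 92.0% and 92.9% in control fish. Apart from one low fish the groups lay in the same narrow band. The means were 91.8% ± 1.87 in WN and 92.0% ± 0.859 in CT fish, so that warm normoxic minus control was -0.203 points (95% interval -1.75 to 1.21, n = 8 per group, p = 0.824 by exact permutation, 0.901 adjusted). Levels were lower from the sixth CpG on, without a steady decline along the region. Warm normoxic and control means were 93.9% and 93.0% at the first CpG and 96.7% and 96.1% at the second, 121687058. They were 84.1% and 86.0% at the sixth, 121687145, and 88.8% and 90.9% at the seventh.

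The low fish at ssa09 was warm normoxic fish 77, and its deviation was uneven along the region. It was the lowest of its group at 7 of the 8 CpGs. At the first 5 CpGs it had between 91.9% and 96.1%. At 121687145 it had 73.5% where the next lowest warm normoxic fish had 83.7%, at 121687148 it had 81.1% against 88.2%, and at 121687311 it had 79.1% against 83.9%. The first of these levels was 85612 methylated of 116400 calls. The same fish had the lowest region mean of its group at ssa04 (35 Mb), with 16.0%, and the highest at ssa03, with 0.798%. Without it the ssa09 difference was 0.376 points, with the sign reversed (p = 0.430 by exact permutation, 0.645 adjusted).

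Among the CpGs of ssa09, those at 121687058 and 121687082 had the lowest p. At 121687082 warm normoxic fish had a lowest level of 95.1%, a median of 96.7% and a highest of 97.4%, against 94.8%, 95.8% and 96.0% in control fish. Of the 8 warm normoxic fish, 6 lay above every control fish. The means were 96.5% ± 0.757 in WN and 95.6% ± 0.416 in CT fish, so that warm normoxic minus control was 0.879 points (95% interval 0.216 to 1.53, n = 8 per group, p = 0.0143 by exact permutation, 0.368 adjusted). Without fish 77 this difference was 1.07 points (p = 0.000777 by exact permutation, 0.0730 adjusted). When single fish were left out it ran from 0.756 to 1.07 points, with an adjusted p from 0.0730 to 0.578. Position 121687058 had 96.7% ± 0.322 in WN and 96.1% ± 0.630 in CT fish, with warm normoxic minus control at 0.547 points (n = 8 per group, p = 0.0474 by exact permutation, 0.558 adjusted). Leaving out single fish moved that difference between 0.411 and 0.680 points, with an unadjusted p from 0.00979 to 0.0912 (exact permutation). The difference with the largest size in points lay in the other direction, at 121687148, with 88.8% ± 3.36 in warm normoxic and 90.9% ± 1.04 in control fish. It came to -2.08 points (p = 0.0710 by exact permutation, 0.564 adjusted) and to -0.978 points without fish 77. The first CpG, 121687029, had the largest positive difference, 0.952 points (p = 0.211 by exact permutation, 0.851 adjusted).

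The other 4 tested regions were almost unmethylated, where CpG calls alone do not tell methylated cytosines from those that escaped conversion. Region ssa14 had the highest of these levels. Warm normoxic fish had a lowest region mean of 0.688%, a median of 1.12% and a highest of 1.44%, against 0.768%, 1.26% and 2.90% in control fish. The highest control value belonged to fish 84, and the next control fish had 1.35%. The group means were 1.12% ± 0.250 in WN and 1.40% ± 0.634 in CT fish, so that warm normoxic minus control was -0.277 points (95% interval -0.788 to 0.147, n = 8 per group, p = 0.300 by exact permutation, 0.901 adjusted), and without fish 84 it was -0.0627 points (p = 0.600).

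With control fish 84 included, the gap at ssa14 lay in its first 4 CpGs, within 70 bp, where warm normoxic means were 0.529 to 1.57 points below control means. Without that fish the gap of the whole region was only -0.0627 points. At the first CpG, 33502562, the most methylated of the region, warm normoxic fish had 3.76% ± 1.91 and control fish 5.25% ± 2.28 (n = 8 each, p = 0.175 by exact permutation, 0.830 adjusted). At 33502613 warm normoxic fish had a lowest level of 0.518%, a median of 1.599% and a highest of 2.38%, against 0.491%, 1.87% and 13.3% in control fish. The highest value was that of control fish 84, on 75319 reads, and the next control fish had 2.69%. The difference there was -1.57 points with fish 84 and -0.103 points without it. At the remaining 10 CpGs the differences ran from -0.0962 to 0.343 points, the highest of them at 33502812 with 1.33% ± 0.475 in WN and 0.988% ± 0.426 in CT fish (n = 8 each, p = 0.151 by exact permutation, 0.830 adjusted). The lowest CpG of the region, 33502965, had 0.450% ± 0.433 in WN and 0.290% ± 0.102 in CT fish.

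Region ssa16, the densest in CpGs, had the narrowest spread between fish. Warm normoxic region means ran from 0.493% to 0.620% with a median of 0.549%, and control means from 0.469% to 0.595% with a median of 0.537%. The difference of 0.0182 points (95% interval -0.0241 to 0.0609) was within the spread (n = 8 each, p = 0.371 by exact permutation, 0.901 adjusted). Within the region 12 CpGs were higher and 11 lower in warm normoxic fish.

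The CpG with the smallest p of the comparison lay in ssa16, at position 37941770. Warm normoxic fish had a lowest level of 0.197%, a median of 0.409% and a highest of 0.930%, against 0.172%, 0.269% and 0.335% in control fish. Of the warm normoxic fish, 7 lay above every control fish, and fish 89 lay within the control range. The means were 0.479% ± 0.219 in WN and 0.256% ± 0.0634 in CT fish, so that warm normoxic minus control was 0.223 points (95% interval 0.0652 to 0.395, n = 8 per group, p = 0.00482 by exact permutation, 0.368 adjusted). The levels rested on 2 to 62 methylated calls per warm normoxic fish and 4 to 54 per control fish, and the 2 belonged to fish 90 with 565 reads. Leaving out fish 89 alone brought the adjusted p to 0.0146 at a difference of 0.263 points (exact permutation). That fish was the only warm normoxic one within the control range, so the groups no longer overlapped without it. The unadjusted p then had to take its smallest possible value, 0.000155 (exact permutation). Over the 15 other omissions of a fish the adjusted p ran from 0.229 to 0.578. Stratified by sex, 37941770 was no longer under an unadjusted p of 0.05, with 0.219 points (exact permutation within sex, p = 0.0505, 0.550 adjusted). The other CpGs with an unadjusted p under 0.05 stayed under it. Their p ran from 0.00730 at 121687058 of ssa09 to 0.0438 at 37942099 of ssa16 (exact permutation within sex). Their adjusted p ran from 0.428 to 0.550.

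At the downstream end of ssa16 the group differences of neighbouring CpGs had opposite signs, none of them past the threshold. Position 37942102 averaged 0.795% ± 0.404 among warm normoxic and 0.412% ± 0.171 among control fish, with warm normoxic minus control at 0.383 points (n = 8 per group, p = 0.0200 by exact permutation, 0.368 adjusted). Position 37942099, 3 bp before it, had 0.230% ± 0.148 in WN and 0.4997% ± 0.271 in CT fish, with warm normoxic minus control at -0.270 points (n = 8 per group, p = 0.0171 by exact permutation, 0.368 adjusted). Some of these levels rested on few calls. Warm normoxic fish 90 had 7 methylated of 561 calls at 37942102 and 0 of 560 at 37942099. Control fish 87 had 6 of 2046 at 37942102 and 22 of 2051 at 37942099. At 37942071 the difference was -0.323 points (p = 0.0503 by exact permutation, 0.558 adjusted). The most methylated CpG of the region, 37941956, had 1.09% ± 0.332 in WN and 1.11% ± 0.145 in CT fish, and the least, 37942017, had 0.190% ± 0.171 in WN and 0.355% ± 0.139 in CT fish.

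Region ssa03 averaged 0.680% ± 0.112 among warm normoxic and 0.692% ± 0.145 among control fish (SD, n = 8 each). Region means ran from 0.473% to 0.798% with a median of 0.715% in warm normoxic fish, and from 0.471% to 0.866% with a median of 0.675% in control fish. The difference of -0.0127 points (95% interval -0.152 to 0.126) was within the spread (p = 0.842 by exact permutation, 0.901 adjusted). The 2 tanks of the same treatment differed by more than the treatments here, with T2 above T5 by 0.146 points in warm normoxic fish and T3 above T4 by 0.154 points in control fish. This was not particular to ssa03. At ssa04 (45 Mb) the tank gaps were 0.0526 points in WN and 0.0324 points in CT fish, against 0.00724 between treatments. At ssa09 the WN gap was 1.17 points against 0.203, and at ssa14 the CT gap was 0.496 points against 0.277. The gap of the other treatment's tanks was smaller than the treatment difference in both. At ssa04 (35 Mb) and ssa16 both tank gaps were smaller than the treatment difference.

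Depth set the resolution at ssa03. Of its 256 values of a CpG in a fish, 48 had 0 methylated calls. If each read were a separate molecule, a count of 0 on 155 reads, the lowest number, allows a level of up to 1.94%. On the same footing the median counting error of a CpG in a fish was 0.280 points. A count of 0 enters it with an error of 0. The median SD between fish was 0.455 points. Since reads are PCR copies, the limit and the counting error can be too small. At 13688404, with 0.884% ± 0.326 in warm normoxic and 0.318% ± 0.439 in control fish, all 8 warm normoxic fish had methylated calls and 4 control fish had 0 of 160 to 437 reads. Warm normoxic fish 92 had 36 methylated of 3092 calls, and the others of its group had 2 to 6 on 288 to 503 reads. The other control fish had 103 of 21259 (fish 83), 27 of 6517 (fish 87), 23 of 1811 (fish 84) and 1 of 266 (fish 88). The difference was 0.566 points (95% interval 0.149 to 0.961, n = 8 each, p = 0.0154 by exact permutation, 0.368 adjusted). At 13688555 warm normoxic fish had 0.278% ± 0.314 and control fish 0.849% ± 0.570, with warm normoxic minus control at -0.571 points (n = 8 per group, p = 0.0235 by exact permutation, 0.368 adjusted), with 0 methylated calls in 3 warm normoxic fish and in 1 control fish. The highest CpG, 13688441, had 1.65% ± 0.700 in WN and 1.63% ± 0.774 in CT fish, and the lowest on average, 13688523, had 0.302% ± 0.318 in WN and 0.456% ± 0.371 in CT fish.

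Region ssa04 (45 Mb) was low in most fish and CpGs, with isolated high values. Its region means ran from 0.263% to 0.655% with a median of 0.534% in warm normoxic fish, and from 0.369% to 0.716% with a median of 0.483% in control fish. The means of 0.506% ± 0.124 in WN and 0.499% ± 0.0998 in CT fish differed by 0.00724 points (95% interval -0.115 to 0.124, n = 8 each, p = 0.901 by exact permutation, 0.901 adjusted). The median value of a CpG in a fish was 0.245% for warm normoxic and 0.277% for control fish. Values over 1% occurred 18 times among 120 in each group (15%), at 14 of the 15 CpGs and in 15 of the 16 fish. Such values were not particular to this region. They made up 13.0% in WN and 10.3% in CT fish at ssa16, and 22.7% in WN and 25% in CT fish at ssa03. At ssa14 they made up 46.4% in WN and 42.9% in CT fish. No CpG of this region had such values in 8 or more fish, and which fish were high changed from CpG to CpG.

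The named CpGs of ssa04 (45 Mb) show this scatter. At 44947203, the highest CpG and the one with the largest positive difference, warm normoxic fish 77, 78 and 79 had 2.42%, 3.01% and 1.27% and the other 5 had 0.464% or less, while control fish ran from 0.140% to 0.900%. The means of 1.01% ± 1.12 in WN and 0.377% ± 0.320 in CT fish differed by 0.634 points (n = 8 each, p = 0.170 by exact permutation, 0.830 adjusted). The 3 high fish came from tank T2, and without that tank the difference was -0.0822 points. At 44947211 the difference was -0.408 points, with 0.388% ± 0.361 in warm normoxic and 0.797% ± 0.607 in control fish (n = 8 each, p = 0.121 by exact permutation, 0.708 adjusted). The lowest CpG, 44947524, had 0.341% ± 0.374 in WN and 0.275% ± 0.167 in CT fish.

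**Figure D4:**
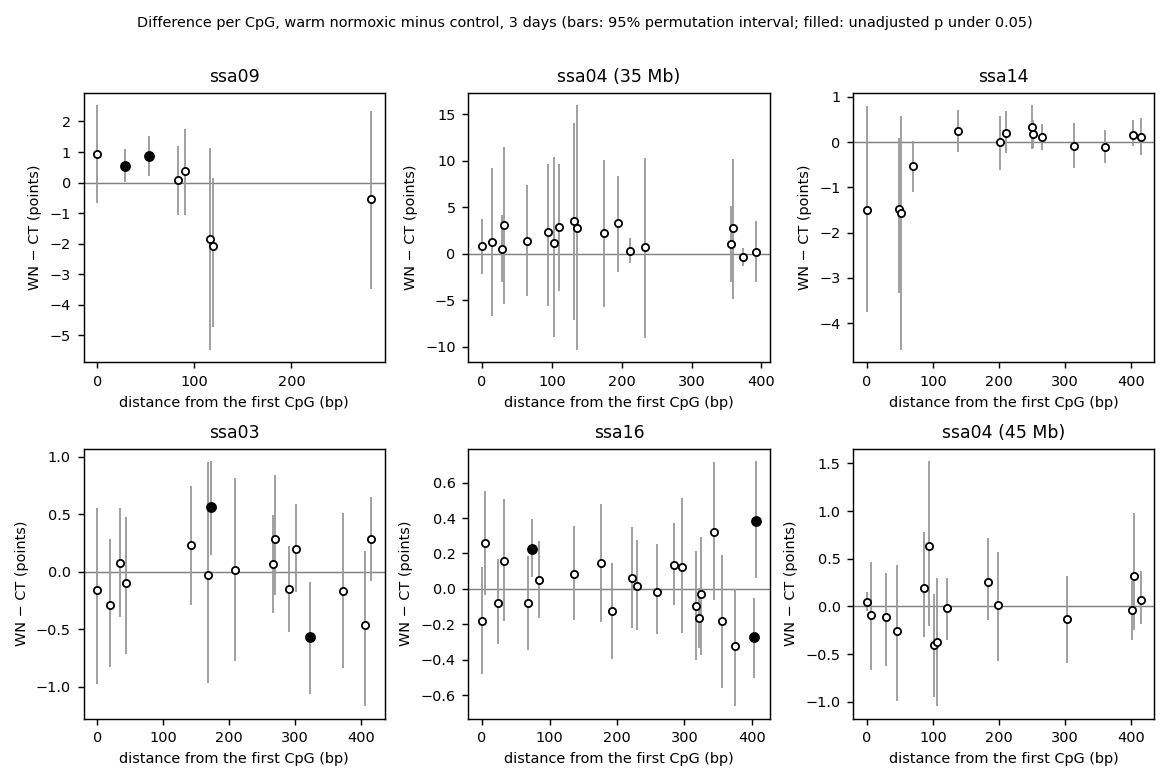
Difference in methylation level per CpG (warm normoxic minus control, percentage points) against distance from the first CpG (bp), with bars for the 95% permutation interval and filled points for the 7 CpGs with an unadjusted p under 0.05. Each region has its own scale, and the intervals are widest at ssa04 (35 Mb), where that of 35435961 runs from -10.4 to 16.0 points.

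Region ssa15 was too shallow for a test. Its fish had a median of 1 to 84 reads per CpG in the warm normoxic group and 1 to 43 in the control group, and the minimum of 30 was reached by 3 warm normoxic fish and 1 control fish. Over all calls of the region a fish had between 0% and 7.18% methylated, with a median of 2.57%, in warm normoxic fish, and between 0% and 5.19%, with a median of 1.95%, in control fish. In the deepest fish, warm normoxic fish 91, 10 of 1079 calls were methylated, or 0.927% (95% Wilson interval 0.504 to 1.70, counting error only, and too narrow because the calls at the 13 CpGs are not independent).

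The spread between fish was compared as well. The mean absolute deviation from the group median came to 1.32 points for warm normoxic and 0.746 points for control fish at ssa09, and to 0.188 points in WN and 0.323 points in CT fish at ssa14, the regions with the stray fish 77 and 84. Without fish 77 the difference in this deviation at ssa09 was 0.0507 points, against 0.577 points with it. At ssa04 (35 Mb) the mean absolute deviation was 3.75 points in WN and 3.88 points in CT fish. None of the 6 regions differed past the threshold (permutation of the deviations over all splits, smallest p = 0.218, smallest adjusted p = 0.752, n = 8 each). Deviations from a group's own median are exchangeable only approximately, so these p-values are approximate.

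The same treatments were sampled again after 4 weeks, in other fish of the same tanks, and the differences at the 2 times were compared. The mix of sexes was not the same at the 2 times. Tank T4, for example, gave only females at 3 days but also males at 4 weeks. Sex was not a term of the time test, so a change over time and a change in the mix of sexes cannot be told apart. At ssa04 (35 Mb) the difference between warm normoxic and control fish was 1.67 points at 3 days and 0.210 points at 4 weeks, and at ssa14 it was -0.277 and 0.118 points. At ssa03 it was -0.0127 points at 3 days and -0.147 points at 4 weeks, the smallest 4 week p of the 6 regions (exact permutation p = 0.0333, 0.1995 adjusted). The change of the difference between the times did not pass the threshold in any of the 6 regions (permutation of residuals with 100000 resamples, smallest p = 0.115, smallest adjusted p = 0.387) or in any of the 94 CpGs, of which 2 (2.13%) had an unadjusted p under 0.05.

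Of the 7 CpGs with an unadjusted p under 0.05 at 3 days, 6 had the same sign at 4 weeks, and 6 had a smaller difference then. Over all 94 CpGs, 51 had the same sign at both times. The 7 were chosen by their 3 day difference, so that the count of smaller differences is a description and no test. The count of same signs is a description as well. The tanks were the same at both times, so a difference between tanks could keep its sign, and CpGs of a region share their fish. None of the 7 had an unadjusted p under 0.05 at 4 weeks, when 4 other CpGs (4.26% of 94) did, and the smallest among the 7 was 0.183 (exact permutation, n = 8 each). At 37941770 of ssa16 the levels at 4 weeks were 0.475% ± 0.283 for warm normoxic and 0.333% ± 0.160 for control fish, with warm normoxic minus control at 0.141 points (n = 8 per group, p = 0.256 by exact permutation, 0.982 adjusted). At 13688404 of ssa03 the difference was 0.0450 points at 4 weeks, with 0.724% ± 0.645 in WN and 0.679% ± 0.539 in CT fish (p = 0.880 by exact permutation, 0.982 adjusted). At 121687082 of ssa09 it was -0.0991 points, with 96.3% ± 0.998 in WN and 96.4% ± 0.837 in CT fish (p = 0.830 by exact permutation, 0.982 adjusted). Position 121687058 was the 1 CpG with a larger difference at 4 weeks, 0.654 points, with 96.9% ± 1.06 in WN and 96.3% ± 0.762 in CT fish (p = 0.183 by exact permutation, 0.982 adjusted).

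**Figure D5:**
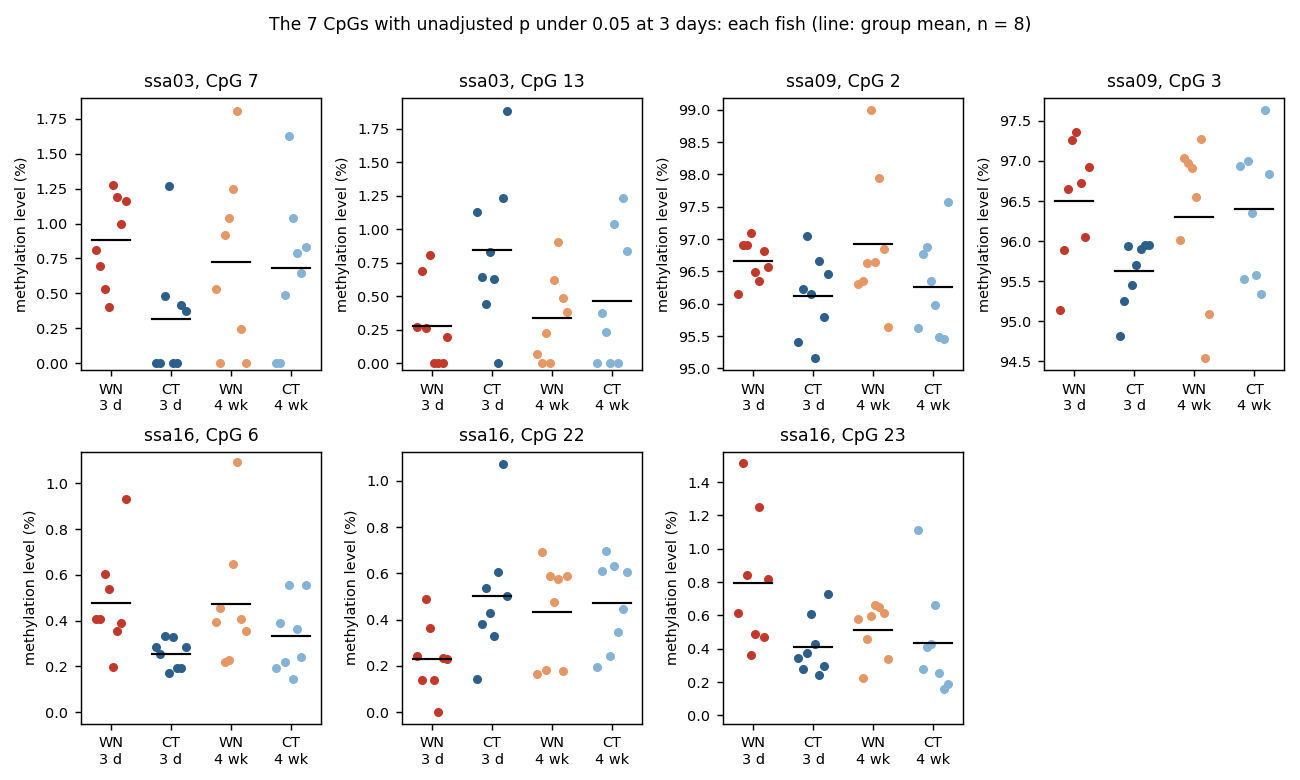
Methylation level (percent) of each fish at the 7 CpGs with an unadjusted p under 0.05 at 3 days, for warm normoxic and control fish at 3 days and at 4 weeks, with a line at each group mean (n = 8). CpGs are numbered along their region, so that CpG 6 of ssa16 is position 37941770, where 7 of 8 warm normoxic fish lie above all control fish at 3 days, and the 4 week groups overlap in every panel.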

How the data were processed

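Methylation was measured by bisulfite amplicon sequencing of liver DNA on an Illumina sequencer, per the labels' protocols. Bismark 0.20.0, Bowtie2, Trim Galore 0.4.4 and MultiQC 1.9 were used, per the submitters' processing notes. No source used here gives their settings, the build's name, the handling of duplicates or the conversion rate. The authors' deposited files hold, per the file headers, whole-number counts of methylated and unmethylated calls per CpG cytosine, without normalization.

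Regions are runs of CpGs with calls in all 48 fish lying under 1000 bp apart, and chromosome numbers are read from the names of the reference sequences. Levels are 100 times methylated over all calls, at CpGs with 30 reads in all 16 fish, and region means weight CpGs and fish equally. Differences were tested with all 12870 splits of the fish (two-sided, smallest possible p 0.000155), adjusted by Benjamini-Hochberg. Intervals hold the shifts not rejected. The time test permuted residuals of the additive model. The alternatives used limma 3.58.1 in R 4.3.3 on M-values, log2((methylated + 1) / (unmethylated + 1)); other steps used Python 3.11.15 with numpy 2.4.6. Other alternatives changed the read minimum and the weighting, stratified by sex, and left out each fish or tank. The exact permutation test per CpG and the time test were run on simulated counts. These were drawn independently for each CpG and fish, without differences between tanks. They therefore do not cover CpGs that move together in a fish, or tank effects. Permutation p-values measure the spread between fish and not between tanks. The limma fits of the 3 day difference used the 16 fish or all 6 groups of the series. The fit on 6 groups was also made with tank as a random block. A further fit used the means of 6 tanks, so its p-values rest on the spread between tanks. The closest fish of a group differed by chi-squares of 76.5 (warm normoxic) and 59.6 (control) per CpG, so no file was counted as a repeat.

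The members and the tests were chosen with earlier results of these data known. The text names CpGs with an unadjusted p under 0.05, the largest positive and negative difference and the highest and lowest level of each region, and CpGs with a range over 40 points within a group.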

Additional observations from a re-analysis of the deposited data

Results flagged for a closer look

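Among 66 sets of 8 fish, those of the 6 region means and of the named CpGs in both groups, 16 had a fish far from the others. Chance flags about 1 in 20 sets, or 3.3 of 66, only where sets are unselected and independent and values are normally distributed. The named CpGs were chosen for large differences, extreme levels or wide ranges, and those of a region share their fish, so that the 2 counts cannot be compared. Warm normoxic fish 77 was the low fish in 6 of these sets. It had 87.7% as its ssa09 mean, 73.5% at 121687145 and 81.1% at 121687148, and in ssa04 (35 Mb) 46.2% at 35435919, 26.4% at 35435956 and 26.9% at 35435961. Control fish 84 was the high fish in 3, with 2.90% as its ssa14 mean, 13.3% at 33502613 of that region and 1.27% at 13688404 of ssa03. Control fish 85 had the high mean of 0.716% at ssa04 (45 Mb).

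Of the other single CpGs, warm normoxic fish 90 had 5.50% at 35436037 of ssa04 (35 Mb), and fish 79 had 1.24% at 44947211 and 1.25% at 44947524 of ssa04 (45 Mb). In ssa14 control fish 87 had 1.905% at 33502812 and warm normoxic fish 78 had 1.48% at 33502965. In ssa16 warm normoxic fish 89 had 1.87% at 37941956.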

How the results depend on the processing

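No paired analysis was possible because the labels number fish by identity and no number occurs in both groups. Read minimums of 10 and 100, and 30 reads in 6 fish of each group, kept the same 94 CpGs in the 3 day comparison. In the time test 79 CpGs had 100 reads in all 32 fish, which left ssa04 (45 Mb) without a value. No alternative brought a region mean past the threshold. The CpGs past it numbered 0, and 0 to 1 when single fish were left out. CpGs with an unadjusted p under 0.05 numbered 11 with tank as a random block, 4 without tank T5 and 4 without T4. For the sign changes below the cause was not tested.

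Differences of regions and CpGs changed sign, larger ones as well as those near 0, in percentage points unless stated. With all 16 fish the larger ones were 1.67 at ssa04 (35 Mb), 3.53 at 35435956, -1.57 at 33502613 and 0.634 at 44947203. Weighting by coverage gave -0.00175 at ssa16. All 4 limma fits gave -0.033 at ssa04 (45 Mb) and 0.055 at ssa09 (log2 of the M-value ratio). Without T2, ssa04 (45 Mb) gave -0.0190, ssa09 0.380 and position 44947203 -0.0822. Without T5, ssa03 gave 0.0601. Without T3, ssa03 gave 0.0641, ssa04 (45 Mb) -0.00894 and 33502613 0.0271. Pairs of fish were left out after seeing the data. Without warm normoxic fish 77 and control fish 84, ssa04 (45 Mb) gave -0.00803, ssa09 0.455, 33502613 0.0370 and the spread at ssa14 0.0626. Without control fish 84 and 88, ssa04 (35 Mb) gave -0.0896, ssa04 (45 Mb) -0.00281, ssa09 0.00486, 35435956 -0.167, and the spreads at ssa04 (35 Mb) 0.329 and ssa14 0.0609. Leaving out single fish gave -0.0444 to 0.0168 at ssa03, -0.0141 to 0.0420 at ssa04 (45 Mb) and -0.440 to 0.376 at ssa09. The spread differences then ran from -1.41 to 0.834 at ssa04 (35 Mb), -0.170 to 0.0597 at ssa14 and -0.0109 to 0.00160 at ssa16. At ssa09 the spread difference kept its sign, from 0.0507 to 0.750.

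The 3 day minus 4 week difference changed sign in the limma interaction at ssa04 (45 Mb), 0.27, and ssa16, 0.029 (log2). It did so without T2 at ssa09, 0.106, and ssa16, 0.00154, without T5 at ssa04 (35 Mb), -0.179, and ssa04 (45 Mb), 0.0761, without T3 at ssa16, 0.00417, and without T4 at ssa04 (45 Mb), 0.0800. Depth limits ssa03 and ssa15, and at ssa16 the warm normoxic fish.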

Other observations

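Calls outside the 7 regions were made in 5 of the 16 fish. Control fish 84 had 4029 such calls at 158 CpGs and control fish 88 had 49 at 44 CpGs. Warm normoxic fish 79 and control fish 83 had 1 each, and control fish 86 had 3. The other warm normoxic fish had 0.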
